A study of Rattus norvegicus with 10 samples.

Results

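The miRNAs described here are the 4 mature products of the cluster of miR-132 and miR-212, rno-miR-132-3p, rno-miR-132-5p, rno-miR-212-3p and rno-miR-212-5p. They were chosen by name, with earlier results of these arrays known, and make up 4 of the 761 miRNA probes on the chip. Left ventricular RNA of male Wistar rats was hybridized to 10 single-colour 3D-Gene rat miRNA chips, 1 per rat. The control group (Control 1 to Control 5, n = 5) received an infusion of saline, and the DEX group (DEX 1 to DEX 5, n = 5) received intravenous dexmedetomidine, a sedative that activates alpha2-adrenergic receptors, for 30 min. The tissue was collected shortly after the infusion without ischemia, and no genetic change is labelled for either group. The age of the rats is not given in the sources used here. The comparison asks whether a short DEX infusion was accompanied by different amounts of these miRNAs in the heart.

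MiR-132 and miR-212 are processed from neighbouring hairpins of a shared primary transcript, which is known to be induced by the cAMP-responsive transcription factor CREB in stimulated neurons. In cardiomyocytes the 3p products are known to promote hypertrophic growth and to restrain autophagy by repressing the transcription factor FoxO3. Each hairpin yields a 3p arm and a 5p arm, and a miRNA finds its targets mainly through its seed, bases 2 to 8 from the 5′ end.

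The mature sequences of the 4 members follow, from RefSeq (build GRCr8), 5′ to 3′, with the seed in capitals. They are shown because the seeds tell which members can address the same targets.
rno-miR-132-3p: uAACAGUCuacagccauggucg
rno-miR-212-3p: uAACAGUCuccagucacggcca
rno-miR-132-5p: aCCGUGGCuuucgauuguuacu
rno-miR-212-5p: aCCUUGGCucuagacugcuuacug

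All 4 members matched an entry of that table by name. Both 3p arms carried the seed AACAGUC, which no other rat mature miRNA in the table had, whereas each 5p seed belonged to 1 miRNA alone. The 3p arms were identical at 17 of 22 positions, including the first 9 bases, and differed by A10C, C14U, U17C, U20C and G22A, counted from the 5′ end with the base of miR-132-3p written first. The 5p arms were identical at 14 of the 22 positions compared. How far a chip probe for one 3p arm also binds the other was not tested.

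Both hairpin genes lie on the plus strand of chromosome 10 in GRCr8, outside the annotated protein-coding genes around them. Mir212 spans chr10:60521740-60521850 and Mir132 spans chr10:60522033-60522133, with 182 bases between them. The nearest annotated protein-coding genes are Hic1, a transcriptional repressor gene, on one side and Ovca2 on the other. The long non-coding RNA gene LOC120095261 starts after a gap of 8 bases behind the Mir132 hairpin.

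The Mir132 hairpin is printed with its arms in capitals to show how the 5p and 3p products face each other across the loop.
rno-mir-132 hairpin, chr10:60522033-60522133: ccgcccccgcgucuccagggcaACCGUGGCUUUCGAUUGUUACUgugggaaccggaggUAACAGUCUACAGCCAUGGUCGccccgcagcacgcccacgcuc

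The 300 bases around the annotated start of LOC120095261 (250 before it and 50 after it) hold the whole Mir132 hairpin and 1 copy of the full CREB motif TGACGTCA, a sequence that reads the same on both strands. This motif was present in 1.83% of the 33469 RefSeq start windows of the same length. The shorter motif TGACG, searched on both strands, matched at 2 positions that both overlap the full motif, and was present in 21.2% of the windows. The stretch between the hairpins that holds the full motif is shown with the motif in capitals, which ends 11 bases before the Mir132 hairpin. A match in letters is a description and not a measurement of CREB binding.
chr10:60521993-60522032: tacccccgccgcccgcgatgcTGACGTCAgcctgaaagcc

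The arrays differed in brightness and background in ways that touch the dimmer members. Each chip holds 1 spot per miRNA, 1664 blank spots and 513 spots that carry no probe, and a signal was taken over the mean of the blank spots. A miRNA counted as detected where the authors' value table lists it, which matched a signal above the blank mean plus 2 SD of the blank spots in all but 2 of 7610 values, and 483 to 533 miRNAs were detected per array. The median signal of the detected miRNAs over blank was 17.3 arbitrary units on DEX 1 and 35.4 to 53.5 on the other 9 arrays. A code in the file names is shared by Control 1 to Control 4, by Control 5 with DEX 1 to DEX 3, and by DEX 4 with DEX 5. These sets are here called slides 1, 2 and 3. Whether each code stands for 1 physical slide was not tested. The spots without a probe had a median of 37.7 units over blank on DEX 4 and 28.8 on DEX 5, against -0.80 to 10.2 on the arrays of slides 1 and 2. Since slide 1 held only controls and slide 3 only DEX arrays, slide and group cannot be told apart there, and only slide 2 held both. Values below are signals over blank, scaled so that the median detected miRNA of each array equals 25, and are called normalized signals. Each probe has its own brightness, so levels are compared between arrays and not between miRNAs.

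**Figure D1:**
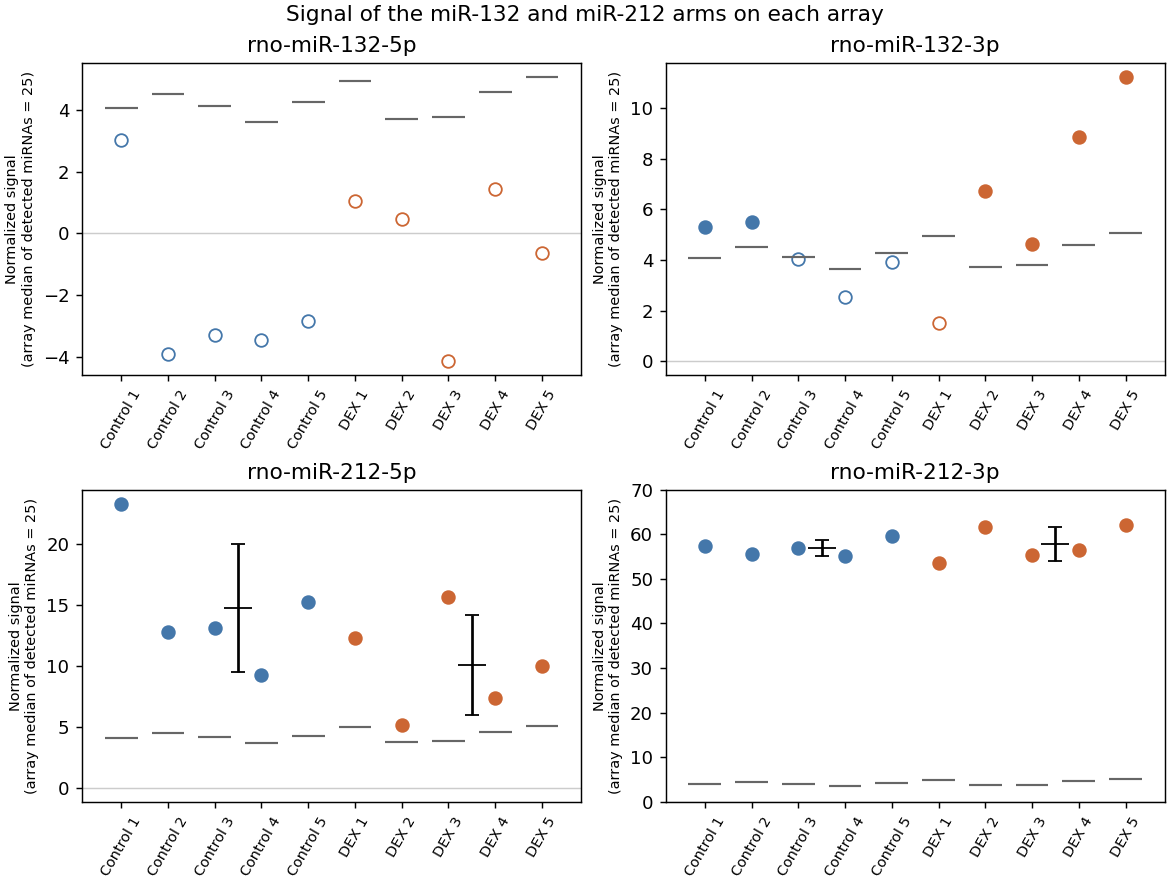
Normalized signal (vertical axes, linear, array median of detected miRNAs = 25) of each member on each of the 10 arrays, with Control in blue and DEX in orange. Filled points were detected and open points were not, short grey lines give each array's detection limit, and black bars give mean ± SD (n = 5) where all arrays of the group detected the miRNA. The plot shows miR-212-3p between 53.6 and 62.2 on all arrays, miR-212-5p between 5.16 and 23.3, miR-132-3p around the limit and miR-132-5p below it on all 10.

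Of the 4 members, the arms of miR-212 were detected on all 10 arrays, miR-132-3p on 6 and miR-132-5p on none. Over the whole chip, 405 of 761 miRNAs (53.2%) were detected on all 10 arrays and 126 on none, so miR-132-5p was 1 of 126 in that class. The test across miRNAs took the 503 detected on at least 5 arrays, and 3 of the 4 members entered it. None of the 503 differed between the DEX group and the control group at an adjusted p under 0.05 by limma (percent called: 0), so none of the 3 members did. At an unadjusted p under 0.05 limma called 15 of the 503 (2.98%), and the methods' t-test also called 15, of which 8 passed its 1.5-fold threshold as well and 0 its Benjamini-Hochberg adjustment. Of the 3 members tested, miR-132-3p was among the 15 of limma, and none was among the 15 of the test of group means. As the members were taken up with these results in view, their rows of the test are given as a description and not as independent evidence.

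MiR-212-3p, a 3p arm with the hypertrophy-linked seed, had nearly the same normalized signal in both groups. The control group had 57.4, 55.7, 57.0, 55.2 and 59.7 in Control 1 to Control 5, a mean of 57.0 ± 1.76 (SD, n = 5). The DEX group had 53.6, 61.7, 55.3, 56.6 and 62.2 in DEX 1 to DEX 5, a mean of 57.9 ± 3.87 (SD, n = 5). All 5 control values lay within the range of the DEX values, and DEX 2 and DEX 5 were the highest of the 10. On the log2 scale the difference, DEX minus control, was 0.020 ± 0.116 (SE), with a 95% interval of -0.23 to 0.27 (limma, unadjusted p = 0.866, adjusted p over the 503 miRNAs = 0.972). That interval corresponds to a ratio of DEX to control between 0.851 and 1.21. Its sign was not stable: without scaling between arrays it was -0.19, with scaling to the 75th percentile -0.088 and with quantile normalization -0.11.

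The detection of miR-212-3p did not hang on how background was measured. Its signal stood 21.6 to 33.1 blank SDs over the blank mean. It was also detected on all 10 arrays when the limit was raised to 3 SD, when blank spots of its own block were used and when the spots without a probe served as background. Before scaling, its signal over blank ran from 37.0 on DEX 1, the dimmest array, to 124 on DEX 2, a 3.35-fold range. After scaling, the range was 1.16-fold.

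This narrow range gave miR-212-3p the smallest spread within groups of the 501 tested miRNAs with a value on every array, a residual SD of 0.0749 on the log2 scale. The next lowest SDs were 0.0784 for miR-25-5p and 0.0823 for miR-370-3p. The median SD was 0.481 in the dimmest of 3 equal classes of the tested miRNAs by signal, 0.294 in the middle class and 0.220 in the brightest, to which miR-212-3p belongs. The rank moved with the processing. It was 2 with the 75th percentile, 3 with quantile normalization and 1 to 3 when any single array was left out. It fell to 48 when the median was taken over the miRNAs detected on every array and to 65 in the authors' value table, and to 272 with no scaling and 331 after normexp with its offset of 50 units.

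**Figure D2:**
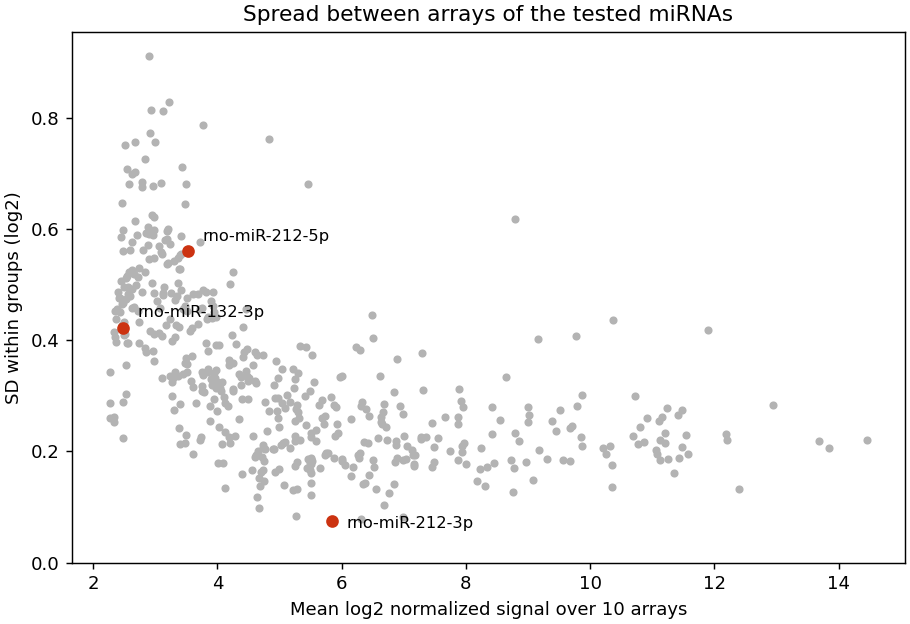
SD within groups (vertical axis, log2 units) against the mean log2 normalized signal over 10 arrays (horizontal axis) for the tested miRNAs in grey, with the 3 tested members in red. MiR-212-3p lies at the lower edge with 0.0749, while miR-132-3p (0.422) and miR-212-5p (0.560) lie among the dim miRNAs, where the spread is wide.

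MiR-212-5p, the partner arm of the same hairpin, had lower mean signal in the DEX group, and the groups overlapped. The control arrays had normalized signals of 23.3, 12.8, 13.1, 9.24 and 15.3, a mean of 14.7 ± 5.24 (SD, n = 5). The DEX arrays had 12.3, 5.16, 15.6, 7.35 and 9.95, a mean of 10.1 ± 4.10 (SD, n = 5). Control 1 was the highest of the 10 and DEX 2 the lowest, while DEX 3 was above 4 of the 5 controls. The log2 difference was -0.58 ± 0.30 (SE), with a 95% interval of -1.24 to 0.073 (limma, unadjusted p = 0.0767, adjusted p = 0.906). The corresponding ratio of DEX to control was 0.667, and a decrease to 0.423 as well as no change lie within its interval of 0.423 to 1.05. Within slide 2, which compares DEX 1 to DEX 3 with Control 5 alone, the difference was -0.62. With slide as a term in the model it was -0.62 ± 0.59 (SE), which is the same contrast, since only slide 2 held both groups. When normexp with an offset of 50 units replaced the blank correction, the difference was -0.0050. That offset exceeds the signal of miR-212-5p over blank on all 10 arrays (8.47 to 37.6 units), which by construction draws the log2 difference of a dim miRNA towards 0.

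MiR-212-5p stood 2.77 to 11.4 blank SDs over the blank mean, and it was lost on 1 array when the limit was 3 SD. Measured against the spots without a probe, it passed on 4 of 5 arrays of the control group and on 2 of 5 of the DEX group (Fisher's exact test, two-sided, p = 0.524). In its own block of the chip, all 18 spots without a probe were brighter than it on DEX 4 and 15 of 18 on DEX 5, against 0 to 2 of 18 on the other 8 arrays. The part of this background in the difference between groups was not tested. With slide 3 left out, the log2 difference was -0.50. With the spots without a probe as background, and arrays that did not pass set to a floor, it was -0.39 ± 0.57 (SE). Relative to the median of all tested miRNAs, that was -0.071, against -0.63 as reported.

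**Figure D3:**
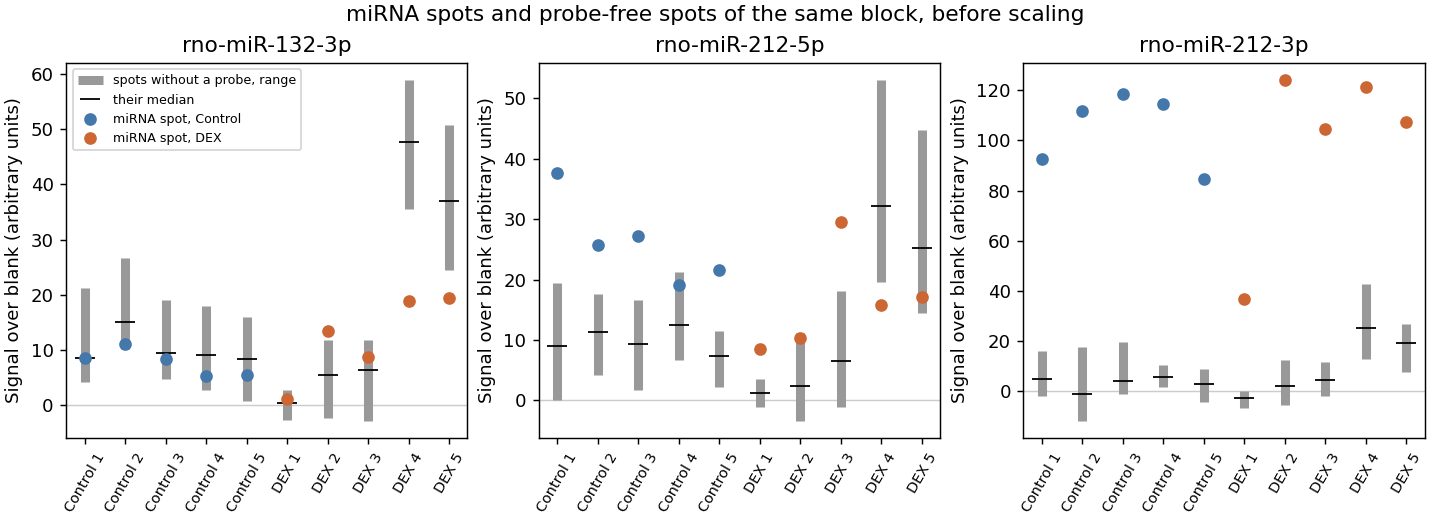
Signal over blank before scaling (vertical axes, arbitrary units) on each array for miR-132-3p, miR-212-5p and miR-212-3p, with Control in blue and DEX in orange, over the range (grey bar) and median (black line) of the spots without a probe in the same block of the chip. On DEX 4 and DEX 5 the points of miR-132-3p (18.9 and 19.4) lie under all 15 such spots, whereas miR-212-3p lies above them on all 10 arrays.

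MiR-132-3p, the 3p arm best known for its hypertrophic role, was near the detection limit in both groups. Its normalized signal was 5.29 in Control 1 and 5.48 in Control 2, both detected, and 4.06, 2.52 and 3.91 in Control 3 to Control 5, not detected. In the DEX group it was 1.51 in DEX 1, not detected, and 6.72, 4.62, 8.85 and 11.2 in DEX 2 to DEX 5, all detected. The groups overlapped, and the highest values were those of DEX 4 and DEX 5, the arrays of slide 3. Detection in 2 of 5 control and 4 of 5 DEX arrays did not pass Fisher's exact test (two-sided, p = 0.524). Signals stood 1.39 to 2.59 blank SDs over the blank mean in the control group and 0.608 to 4.43 in the DEX group.

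With undetected arrays set to the lowest detected signal of the same array (3.64 to 4.98 on the 4 arrays concerned), miR-132-3p averaged 4.57 ± 0.784 over the 5 control arrays and 7.28 ± 2.77 over the 5 DEX arrays (mean ± SD). The log2 difference was 0.61 ± 0.24 (SE), with a 95% interval of 0.085 to 1.13 (limma, unadjusted p = 0.0260, adjusted p = 0.906). It ranked 12 by p among the 503 miRNAs, so the unadjusted p was one of 15 at that level. The filter of at least 5 arrays counted both groups together, and miR-132-3p passed it with 2 control and 4 DEX arrays. It thus entered the test mainly through the group where its signal was higher, and its rank is a description only. In limma with trend and robust, its unadjusted p was 0.0547. Because 4 of the 10 values are floors, the log2 difference of 0.61 is that of a mixture of measured and limiting values. DEX 1 had the lowest measured signal of the 10, yet its floor of 4.98 lay above those of Control 3 to Control 5 (3.64 to 4.27). With undetected arrays left missing, the difference was 0.47 ± 0.33 (SE, 95% interval -0.28 to 1.21), over 2 control and 4 DEX arrays. With the measured signals kept in place of the floors, it was 0.40 ± 0.48 (SE, 95% interval -0.66 to 1.46). Both of these intervals include 0.

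The size of the miR-132-3p difference moved with slide 3. Without DEX 4 and DEX 5 it was 0.25 ± 0.20 (SE, adjusted p = 0.992). Within slide 2, against Control 5 alone, it was 0.33. With slide as a term in the model it was 0.33 ± 0.32 (SE), which is the same contrast and not a further check. The difference was 0.022 after normexp with its offset of 50 units. It was 0.058 with no background correction, which leaves the blank mean of 93.7 to 185 units in the signal. Both settings draw log2 differences of dim miRNAs towards 0 by construction. On slide 3 the signal of miR-132-3p over blank was 18.9 and 19.4 units, and the spots without a probe in its own block had medians of 47.7 and 36.9. All 15 of those spots were brighter than miR-132-3p on both arrays. On slides 1 and 2 its signal was below the block median of such spots on all 5 control arrays. Those medians were 8.32 to 15.1 units, and Control 1 had 8.53 against 8.57. On DEX 1, DEX 2 and DEX 3 the signal was above the median (1.04, 13.5 and 8.75 units against medians of 0.292, 5.49 and 6.37). The medians of these DEX arrays were thus themselves lower than those of the controls. How many other miRNAs show this pattern was not counted. On DEX 2 no spot without a probe in the block was brighter. Taking the spots without a probe as background, miR-132-3p was detected on 0 of 10 arrays, while 74.9% of the detected values of the whole chip were kept. With the 3 SD limit, it was detected on 0 of 5 control and 3 of 5 DEX arrays (Fisher's exact test, two-sided, p = 0.167), and with blank spots of its own block on 1 and 3.

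MiR-132-5p, the partner arm on the same hairpin, was detected on none of the 10 arrays and was not tested. Its normalized signal lay between -3.89 and 3.04 in the control group and between -4.14 and 1.44 in the DEX group, so several spots were dimmer than the blank mean. That range was -2.18 to 1.49 blank SDs, below the limit on all arrays, and with blank spots of its own block it passed on Control 1 alone. A level under the limit gives no fold between groups, and does not show that the miRNA was absent from the tissue.

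**Figure D4:**
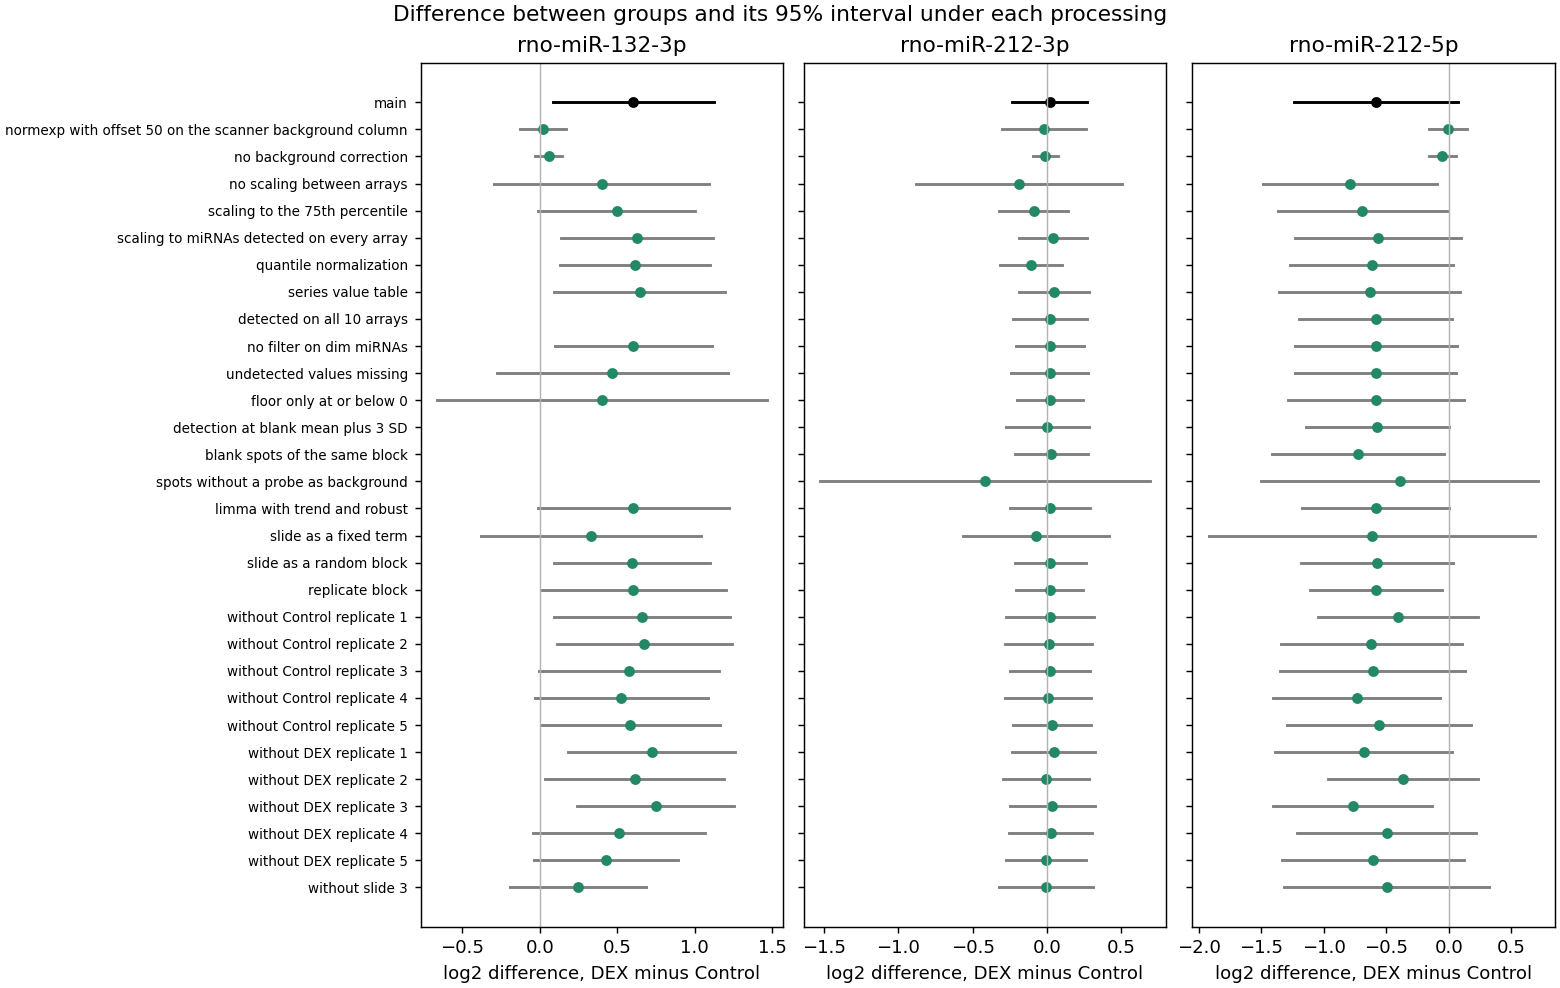
Log2 difference, DEX minus control (horizontal axes, points), with 95% intervals (lines) for the 3 tested members under each processing, with the reported one in black at the top. MiR-132-3p lies right of 0 in all settings that gave a value, from 0.022 to 0.75, miR-212-5p left of 0 from -0.79 to -0.0050, and miR-212-3p on both sides, from -0.42 to 0.050. Some settings change only the filter or the model and repeat the reported point.

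The arms of the miR-212 hairpin were the only pair of members measured on all 10 arrays, so their relation was the single one computed. Their log2 signals had a Pearson's r of -0.34 (permutation p = 0.340) and a Spearman's rho of -0.067 (permutation p = 0.865) over the 10 arrays. With a single relation, the adjusted values equal these. After subtraction of the group means r was -0.31 (permutation p = 0.381), and without DEX 5 and DEX 2, the arrays farthest from the median of miR-212-3p, r was 0.31 over 8 arrays (exact permutation p = 0.466). No relation between the arms was established. The sign of r turned without DEX 2 alone (0.0068) and not without DEX 5 alone (-0.33), and with all 10 arrays it was positive with no scaling (0.45), the 75th percentile (0.18) and quantile normalization (0.29). The log2 ratio of the 3p to the 5p probe signal, used between arrays only, averaged 2.02 ± 0.46 over the 5 control arrays and 2.62 ± 0.69 over the 5 DEX arrays (mean ± SD). The difference of 0.60 did not pass the exact permutation test (two-sided, p = 0.143), and without DEX 3 it was 0.80 (exact p = 0.0317).

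The other miRNAs with the array pattern most like each fully detected member were found by Pearson's r over the 10 arrays among 404 miRNAs detected throughout. For miR-212-3p they were miR-676 (r = 0.79), miR-382-5p (r = 0.78) and miR-871-3p (r = 0.77). For miR-212-5p they were miR-672-5p (r = 0.82), the probe shared by miR-466b-2-3p and miR-466b-4-3p (r = 0.71) and miR-674-3p (r = 0.71). Over the same 404 miRNAs the lowest r was -0.73 for miR-212-3p and -0.92 for miR-212-5p, so values of this size occurred in both directions. These are descriptions over 10 arrays that share slides and scaling, and in the case of miR-212-3p the values compared span only a 1.16-fold range. MiR-212-5p was not among the 3 miRNAs closest to miR-212-3p, nor the reverse.

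The 4 members were set beside lists of miRNAs with known related roles. Of 12 miRNAs known to promote cardiac hypertrophy, all 12 were tested and all 12 had a log2 difference above 0, against 59.2% of the 503 tested miRNAs. Their median was 0.16, beside a median of 0.044 over all tested miRNAs. All 12 were detected on all 10 arrays, and among the 405 such miRNAs 61.2% were above 0, with a median of 0.051. Most of the 12 were in the brightest class, and neither this list nor the next was compared with miRNAs of like brightness. None of the 12 passed the test, adjusted or at an unadjusted p under 0.05. In that list miR-155-5p, an inflammatory miRNA of macrophages and cardiomyocytes, had the largest difference at 0.51 ± 0.29 (SE), and miR-22-3p, enriched in muscle, the smallest at 0.00010 ± 0.15 (SE).

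Of 14 miRNAs known to restrain hypertrophy, all 14 were tested, 13 had a difference above 0 and their median was also 0.16, again with none past either threshold. MiR-223-3p, a myeloid miRNA, was highest at 0.34 ± 0.25 (SE), and miR-133b-3p, a muscle miRNA, lowest at -0.013 ± 0.15 (SE). The share above 0 is set by the scaling, since over all tested miRNAs it was 14.7% without scaling, 34.0% with the 75th percentile and 38.6% with quantile normalization. The medians of the promoting and restraining lists lay on the same side of 0, while the members fell on both sides, with miR-132-3p at 0.61, miR-212-3p at 0.020 and miR-212-5p at -0.58.

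Of 5 miRNAs known for dependence on neuronal activity, as the cluster of miR-132 and miR-212 itself is, 2 were tested and neither passed. MiR-134-5p, known for its control of dendritic spines, had a difference of -0.48 ± 0.25 (SE) and miR-138-5p, also a synaptic miRNA, of -0.017 ± 0.14 (SE). The brain-enriched miR-124-3p, with miR-184 and miR-219a-5p, was detected on 1 array each. In bulk tissue, fewer cells of a type and less RNA per cell cannot be told apart.

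All 4 cardiomyocyte miRNAs of the list were detected on all 10 arrays, with a median log2 difference of 0.14, beside 0.044 over all tested miRNAs. All endothelial, smooth muscle and leukocyte markers were also detected on all 10 arrays, so detection alone does not identify the tissue. The summed normalized signal of the cardiomyocyte miRNAs ran from 18827 to 27616 in the control group and from 19084 to 28148 in the DEX group. The endothelial, smooth muscle and leukocyte markers had median differences of 0.068, 0.10 and 0.25. The 3 red cell miRNAs, all detected on all arrays, had a median difference of -0.59, with 2 below 0 and 1 at 0.019. Their sums were 564 to 1028 in the control group and 349 to 1004 in the DEX group, and none passed the test. Of the 3 neuron markers, 2 were detected on all 10 arrays and tested, with a median of 0.068, and miR-124-3p was detected on 1 array. The part of any of these in the values of the members was not tested.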

How the data were processed

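The scanner files, as deposited by the authors, give spot medians, an intensity read at 635 nm and merged from 3 gain settings, with no background removed. A deposited table of the series gives the authors' score, a whole number for each detected miRNA. All scores agreed, within 1 unit, with signals over blank scaled to a median of 25 over the miRNAs detected on every array. Group and replicate came from the sample labels and slide from the file names, and 0 columns of the value table were unused. The miRBase release behind the chip is not given in the sources used here, and the labels and the study name different RNA kits.

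From the intensities, the mean of the blank spots, after removal of 5% at each end, was subtracted, each array was scaled to a median of 25 over its detected miRNAs, a miRNA not detected was given its array's lowest detected value, and log2 was taken. The 503 miRNAs seen on 5 or more arrays were compared by limma 3.58.1 in R 4.3.3, with Benjamini-Hochberg adjustment over all of them. The code was tested on simulated data. Relations used permutation tests (100000 orders for 10 arrays, all orders for fewer), in Python 3.11.15. Arrays count no molecules, and their number limits the precision.

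The members and lists were chosen with earlier results of these data known. Genes were named by rule: the 4 members, the 3 miRNAs most like each fully detected member, and the highest and lowest of each list, to which the undetected list members and miR-25-5p and miR-370-3p, picked after their values were seen, were added. Alternatives covered background, scaling, detection, filter, floor, model, slide and each array left out.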

Additional observations from a re-analysis of the deposited data

How the results depend on the processing

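No miRNA passed an adjusted p under 0.05 under any of 30 alternatives (lowest adjusted p 0.0609 to 0.998), while 1 to 42 of the tested miRNAs had an unadjusted p under 0.05, against 15 as reported. The same-block blank spots, the spots without a probe as background, and the omission of slide 3 were chosen after seeing the data. MiR-132-3p stayed above 0 in 26 alternatives (0.022 to 0.75, adjusted p 0.567 to 0.998, leaving out single arrays 0.43 to 0.75). It was not run with the filter on all 10 arrays, the 3 SD limit or either added background, since it was detected on fewer arrays than these require. MiR-212-5p stayed below 0 in 30 alternatives (-0.79 to -0.0050, leaving out single arrays -0.77 to -0.37). Some of the alternatives could not turn the sign of either miRNA. No filter, limma with trend and robust, the replicate block and the test of group means left both estimates as reported. For miR-212-5p, so did the filter on all 10 arrays and the other treatments of undetected values. The values nearest 0 of both came from normexp with an offset of 50 units, which draws dim miRNAs towards 0 by construction. The difference of miR-212-3p turned negative with normexp (-0.020), no background correction (-0.0090), no scaling (-0.19), the 75th percentile (-0.088), quantile normalization (-0.11), spots without a probe as background (-0.42), slide as a fixed term (-0.073) and without slide 3 (-0.0055), and leaving out single arrays gave -0.0066 to 0.047, negative without DEX 2 or DEX 5. The median of all tested miRNAs moved from 0.044 to -0.16 with no scaling, -0.19 with slide as a fixed term and -0.32 with spots without a probe. Relative to those medians miR-212-3p lay at -0.024, 0.11 and -0.093, and miR-212-5p at -0.63, -0.43 and -0.071. The correlation of the miR-212 arms turned positive with no scaling (0.45), the 75th percentile (0.18), quantile normalization (0.29) and spots without a probe (0.77, permutation p = 0.00369), while no background correction kept it negative (r = -0.48, permutation p = 0.165) with a Spearman's rho of -0.79 (permutation p = 0.00891), and leaving out single arrays gave -0.43 to 0.0068, positive without DEX 2. Their log2 ratio between groups turned negative with normexp (-0.015) and spots without a probe (-0.022), and leaving out single arrays gave 0.37 to 0.80, with an exact p of 0.0317 without DEX 3 alone.

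With the replicate block the differences were 0.61 for miR-132-3p (limma adjusted p = 0.673), -0.58 for miR-212-5p (adjusted p = 0.616) and 0.020 for miR-212-3p, and 35 miRNAs had an unadjusted p under 0.05, none adjusted. Arrays with the same number correlated at -0.080 to 0.11 in their deviations from the group means. The labels give a number and no pairing, and whether same-numbered arrays were handled together was not tested. The cause of these changes was not tested.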
